A study of Rattus norvegicus with 23 samples.

Results

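Macrophages clear debris from a cut nerve and release signals that act on Schwann cells, fibroblasts and vessels, and their gene expression shifts with the stage of repair. In rat median nerve, 4 genes that report on these cells were followed here. Cd68 encodes a glycoprotein of the endosomes and lysosomes of macrophages, and Aif1 encodes Iba1, a calcium-binding protein that binds actin and is widely used to stain macrophages and microglia. Arg1 encodes arginase 1, which splits arginine into ornithine and urea and is a standard marker of alternatively activated macrophages in rodents. Hmox1 encodes haem oxygenase 1, which opens the haem ring to give biliverdin, iron and carbon monoxide, and which macrophages and other cells induce under oxidative stress or haem load. None of the 4 is restricted to macrophages in every tissue, and in particular Hmox1 is inducible in most cell types.

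The genes were chosen by identifier from a list of 5, and 4 of the 5 had a row among the 32545 gene identifiers of the count table: Cd68 (ENSRNOG00000037563), Aif1 (ENSRNOG00000000853), Arg1 (ENSRNOG00000013304) and Hmox1 (ENSRNOG00000014117). The other identifier, for the inducible nitric oxide synthase gene Nos2, had no row and is not analysed here. All 4 genes passed the filter on low counts in both fits. The table holds identifiers only, so the symbols are those given with the list.

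The data are raw read counts per gene from 23 RNA-seq libraries of wild-type adult female rats in 7 groups. The repaired nerves carried a gap of 8 mm after the cut and were collected at day 7 or day 3 after repair. They form the groups MIV day 7 and MIV day 3, whose treatment label adds MIV to the repair (a 10 mm vein graft filled with muscle), and EV day 7 and EV day 3, whose label names repair of the cut without MIV (n = 3 each). The abbreviation EV is not spelled out in the labels. The untreated tissues were adductor muscle (n = 3), epigastric vein (n = 3) and median nerve (n = 5). Whether each library is a separate animal is not stated in the labels, and the p-values therefore describe only the spread among these libraries, which may be partly technical. Library totals ran from 12504035 to 17314324 counts. Levels are given in CPM, that is, counts scaled to a common sequencing depth with the TMM method. Where libraries are said to lie above, below or apart from others, the share of all genes doing the same was not counted.

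One repaired library stood apart from its group. MIV day 7 replicate 2 correlated across genes at 0.899 with the mean of the other MIV day 7 libraries and at 0.923 with the mean of the MIV day 3 libraries, whereas the other 11 repaired libraries were closer to their own group than to the other day of their series. The 2842 muscle-enriched genes (higher in healthy muscle than in both other healthy tissues) took 24.8%, 17.9% and 37.4% of the counts of MIV day 7 replicates 1, 2 and 3, 16.1% to 17.1% in EV day 7, 18.3% to 21.7% in MIV day 3 and 17.7% to 19.9% in EV day 3. The same genes took at most 17.1% of the counts in healthy nerve and at most 17.3% in healthy vein. Both tissues were untreated, so a share near these values is not a measure of grafted muscle. MIV day 7 replicate 2, at 17.9%, lay just above them. EV day 7 replicate 2 correlated at 0.978 with the rest of its group, but it differed from them in Hmox1, as described below. Results that rest on these libraries are given with and without them.

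**Figure D1:**
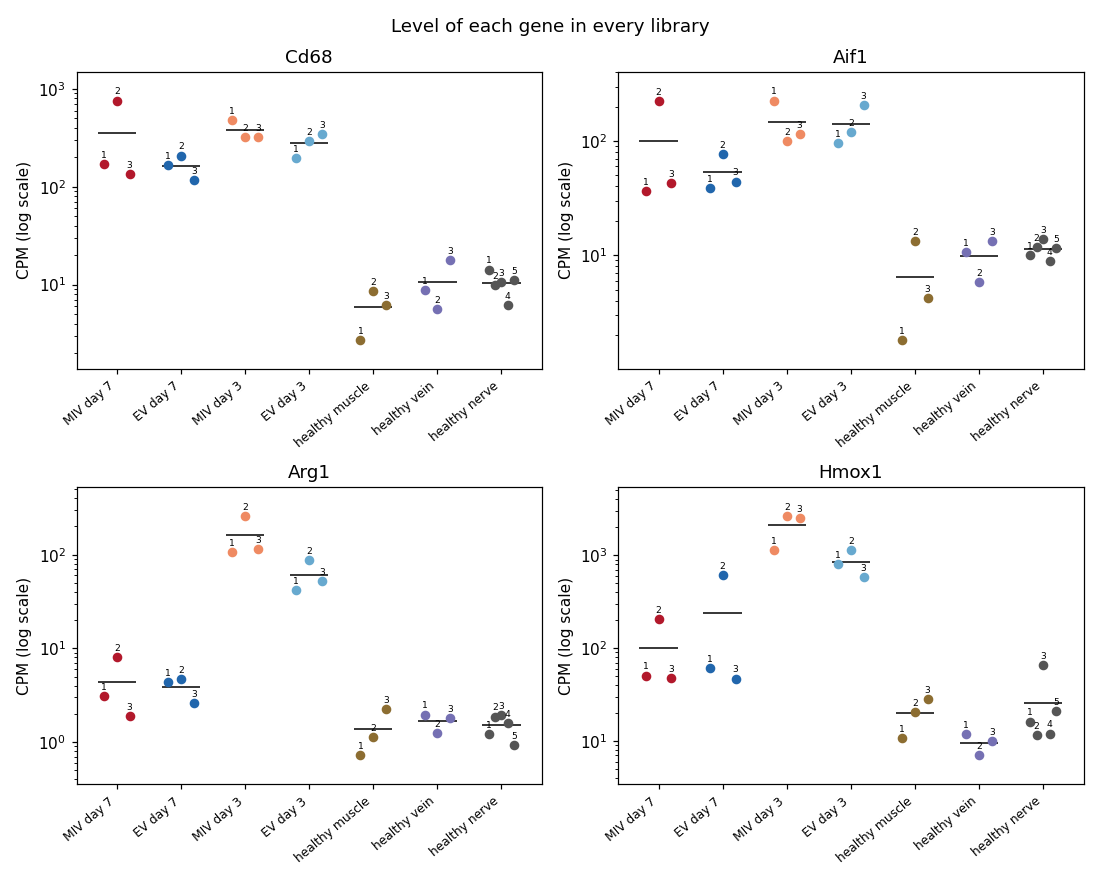
Level of Cd68, Aif1, Arg1 and Hmox1 in every library, in CPM on a log axis. Each point is 1 library with its replicate number, grouped and coloured by group, and the horizontal line is the group mean. All 12 repaired libraries lie above all 11 healthy libraries for Cd68 and Aif1, while Arg1 and Hmox1 are high mainly in the day 3 groups.

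All 4 genes were higher in every repaired group than in healthy median nerve. With edgeR's quasi-likelihood test over 15954 genes and Benjamini-Hochberg adjustment over all of them, 4 of 4 members passed as higher in MIV day 7, where 29.2% of all genes were called higher. The count was likewise 4 of 4 in EV day 7 (24.1% of all genes called higher), 4 of 4 in MIV day 3 (30.9%) and 4 of 4 in EV day 3 (30.0%). These 4 comparisons share the 5 healthy nerve libraries. The median log2 fold change of the members was 2.58, 2.73, 5.77 and 4.89 in that order, beside medians of 0.05, 0.000885, 0.01 and -0.01 over all genes. Because the libraries are of whole tissue, more cells of a type and more RNA per cell cannot be told apart.

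Cd68 was above all healthy tissues at both days. It stood at 172, 758 and 134 CPM in MIV day 7, at 165, 208 and 117 CPM in EV day 7, at 483, 322 and 322 CPM in MIV day 3 and at 195, 291 and 344 CPM in EV day 3. Healthy muscle held 2.71, 8.65 and 6.20 CPM, healthy vein 8.85, 5.62 and 17.8 CPM, and healthy nerve 14.3, 9.99, 10.6, 6.20 and 11.1 CPM. The lowest repaired library was at 117 CPM and the highest healthy one at 17.8 CPM, so the repaired and the healthy libraries did not overlap. How common such a separation is among all genes was not counted.

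Against healthy nerve the log2 fold change of Cd68 was 5.09 ± 0.51 (SE) in MIV day 7 (edgeR adjusted p = 1.72e-07), and 3.97 ± 0.49 in EV day 7 (edgeR adjusted p = 2.38e-06). The day 3 values were 5.17 ± 0.51 for MIV (edgeR adjusted p = 7.23e-08) and 4.73 ± 0.50 for EV (edgeR adjusted p = 1.82e-07). This corresponds to fitted folds of 34.0, 15.6, 36.0 and 26.5. Without MIV day 7 replicate 2, the library with the highest Cd68 level of all 23, the log2 fold change in MIV day 7 was 3.87 and still passed. In order of group means Cd68 ran MIV day 3, MIV day 7, EV day 3, EV day 7, healthy vein, healthy nerve and healthy muscle. Only EV day 7 and healthy vein, among neighbours in that order, had libraries that did not overlap.

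The stretch around the Cd68 transcription start is shown because Cd68 was the 1 of the 4 genes that matched the promoter table, and it was searched for motifs of a myeloid and of a general transcription factor. The sequence is from RefSeq (GRCr8, chr10:54882392-54882691, minus strand) and runs from 250 bases before to 50 bases after the start. Capitals mark GAGGAA, the core recognised by the myeloid Ets factor PU.1, and TGANTCA, the AP-1 motif, both searched on both strands.
Cd68: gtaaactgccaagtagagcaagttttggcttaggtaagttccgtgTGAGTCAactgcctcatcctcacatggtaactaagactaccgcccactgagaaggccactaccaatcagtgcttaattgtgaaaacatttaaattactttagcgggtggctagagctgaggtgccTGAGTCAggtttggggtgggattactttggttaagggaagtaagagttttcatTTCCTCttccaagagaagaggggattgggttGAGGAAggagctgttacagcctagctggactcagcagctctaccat
The window held 2 copies of GAGGAA, 1 on each strand, with first bases at -27 and 5 relative to the start, and 2 copies of TGANTCA at -205 and -80. No copy overlapped another. Of 33465 promoter windows of the same length, 27.6% held GAGGAA and 7.33% held TGANTCA. These matches describe the letters of the window and are not evidence of binding.

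Aif1 followed the same outline at a smaller fold. It stood at 36.4, 223 and 42.9 CPM in MIV day 7, at 38.7, 76.3 and 44.1 CPM in EV day 7, at 226, 99.9 and 116 CPM in MIV day 3 and at 95.4, 120.0 and 206 CPM in EV day 3. Healthy muscle held 1.81, 13.2 and 4.22 CPM, healthy vein 10.7, 5.83 and 13.3 CPM, and healthy nerve 9.96, 11.9, 13.8, 8.97 and 11.6 CPM. Every repaired library was above every healthy one, with 36.4 CPM as the lowest and 13.8 CPM as the highest of the 2 sets. As for Cd68, how common this is among all genes was not counted.

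The log2 fold change of Aif1 against healthy nerve was 3.16 ± 0.54 (SE) in MIV day 7 (edgeR adjusted p = 7.68e-05) and 2.24 ± 0.53 in EV day 7 (edgeR adjusted p = 0.00196). The day 3 values were 3.71 ± 0.55 for MIV and 3.64 ± 0.55 for EV (edgeR adjusted p = 1.07e-05 and 1.31e-05). Without MIV day 7 replicate 2 the MIV day 7 value was 1.82, past the threshold as well. The order of group means was MIV day 3, EV day 3, MIV day 7, EV day 7, healthy nerve, healthy vein and healthy muscle, and the only neighbours without overlap were EV day 7 and healthy nerve.

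Arg1 was high at day 3 and close to the healthy range at day 7. It stood at 3.07, 8.08 and 1.90 CPM in MIV day 7, at 4.36, 4.71 and 2.64 CPM in EV day 7, at 107, 259 and 116 CPM in MIV day 3 and at 42.0, 87.6 and 51.9 CPM in EV day 3. Healthy muscle held 0.723, 1.14 and 2.25 CPM, healthy vein 1.97, 1.25 and 1.81 CPM, and healthy nerve 1.23, 1.88, 1.97, 1.60 and 0.923 CPM. The 6 day 3 libraries lay above all others, and 11 of the 12 repaired libraries lay above every healthy one, MIV day 7 replicate 3 being the exception. The healthy libraries and MIV day 7 replicate 3 rest on 4 to 39 reads each, which limits the precision of their levels.

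Against healthy nerve the log2 fold change of Arg1 at day 3 was 6.72 ± 0.45 (SE) in MIV and 5.30 ± 0.43 in EV (edgeR adjusted p = 5.50e-10 and 6.27e-09). The fitted folds were 105 and 39.5. With all libraries Arg1 and Hmox1 had the higher edgeR values of the 4 genes in both day 3 groups, but which of the pair was ahead changed with the setting, as given below. At day 7 the log2 fold change was 1.51 ± 0.44 in MIV (edgeR adjusted p = 0.00680) and 1.35 ± 0.44 in EV (edgeR adjusted p = 0.0161). Neither day 7 call was stable, although each was kept in 27 of 31 alternative settings. Without MIV day 7 replicate 2 the MIV value was 0.71 (edgeR adjusted p = 0.191). The EV value was 1.26 without EV day 7 replicate 1 (edgeR adjusted p = 0.0541) and 1.19 without EV day 7 replicate 2 (edgeR adjusted p = 0.0660). The order of group means was MIV day 3, EV day 3, MIV day 7, EV day 7, healthy vein, healthy nerve and healthy muscle. Neighbouring groups overlapped within day 7 and among the healthy tissues, and did not overlap at the 3 other steps of this order.

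Hmox1 was also high at day 3, with wide spread within the day 7 groups. It stood at 50.7, 206 and 47.6 CPM in MIV day 7, at 61.7, 609 and 47.2 CPM in EV day 7, at 1128, 2664 and 2550.1 CPM in MIV day 3 and at 815, 1144 and 586 CPM in EV day 3. Healthy muscle held 10.8, 20.7 and 28.3 CPM, healthy vein 12.0, 7.01 and 9.90 CPM, and healthy nerve 16.2, 11.7, 66.4, 12.0 and 21.2 CPM. EV day 7 replicate 2 lay within the range of the EV day 3 libraries, unlike its Arg1 level, which lay with day 7. Of the 12 repaired libraries 8 were above every healthy one. The other 4 (replicates 1 and 3 of both day 7 groups) lay below healthy nerve replicate 3.

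The log2 fold change of Hmox1 against healthy nerve was 6.37 ± 0.83 (SE) in MIV day 3 and 5.06 ± 0.79 in EV day 3 (edgeR adjusted p = 2.42e-06 and 1.98e-05). Without healthy nerve replicate 3, which held the highest Hmox1 level of the healthy libraries, these values were 7.11 and 5.79, and voom gave 7.24 and 5.95, all above the Arg1 values. At day 7 it was 1.99 ± 0.73 in MIV (edgeR adjusted p = 0.0266) and 3.23 ± 0.74 in EV (edgeR adjusted p = 0.00144). Each day 7 call was lost without replicate 2 of its own group, at 0.95 in MIV (edgeR adjusted p = 0.327) and 1.09 in EV (edgeR adjusted p = 0.173). The MIV call was also lost without healthy nerve replicate 1, 2, 4 or 5 in turn, with log2 fold changes of 1.81 to 1.93 and adjusted p of 0.0512 to 0.0601. Without healthy nerve replicate 3 the day 7 values were higher, at 2.73 in MIV and 3.97 in EV. In order of group means Hmox1 ran MIV day 3, EV day 3, EV day 7, MIV day 7, healthy nerve, healthy muscle and healthy vein, and libraries overlapped at every step.

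**Figure D2:**
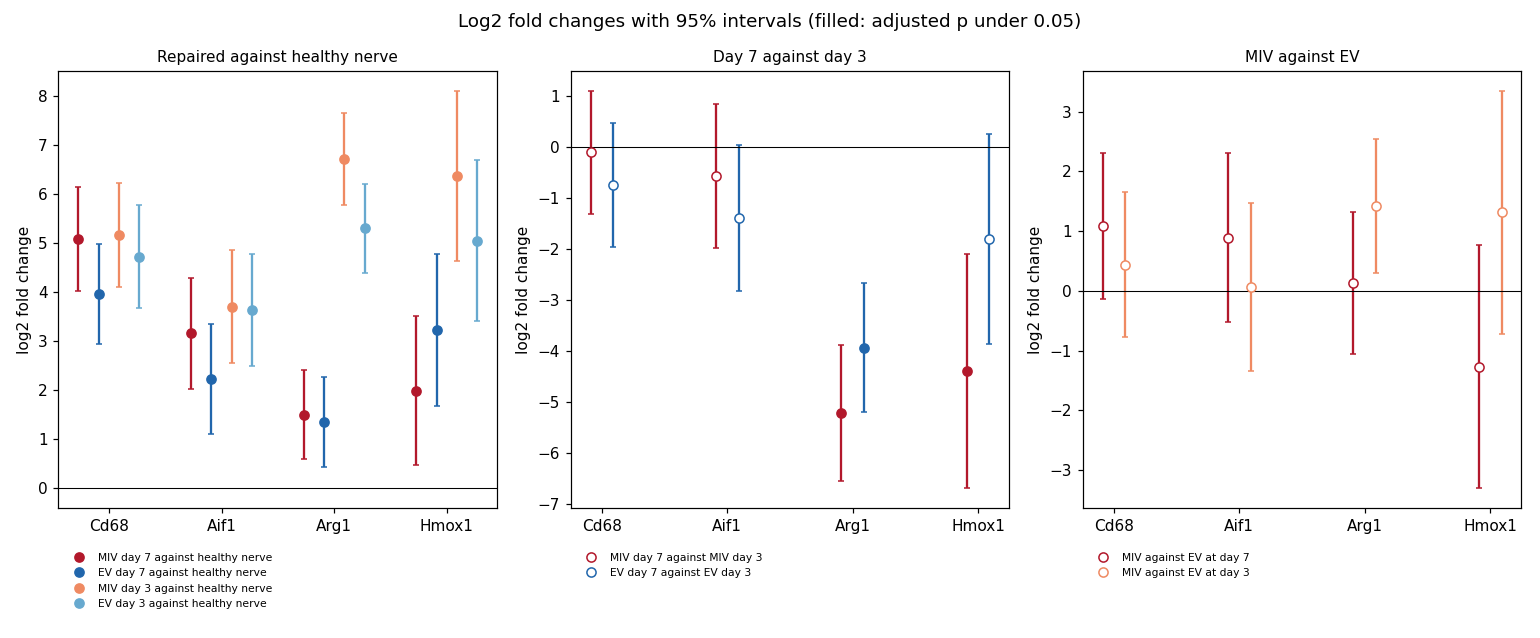
Log2 fold changes of the 4 genes (x axis) in 3 sets of comparisons, with 95% intervals from edgeR's quasi-likelihood fits. Filled points passed an adjusted p of 0.05. All 16 values against healthy nerve are filled, between day 7 and day 3 Arg1 is filled in both series and Hmox1 in MIV only, and none is filled between MIV and EV.

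Between healthy tissues no call was made for these genes. None passed in healthy muscle against healthy nerve, in healthy vein against healthy nerve or in healthy muscle against healthy vein, where edgeR called 67.3%, 40.3% and 64.2% of all genes in either direction. No member had an unadjusted p under 0.05 in these comparisons with edgeR, and DESeq2 and limma voom called none of the members either. With all libraries the largest difference was that of Hmox1 in vein against nerve, at -1.40 ± 0.79 (SE; 95% interval -3.06 to 0.26, edgeR adjusted p = 0.172). Healthy nerve replicate 3 weighed on it, and without that library it was -0.66. Aif1 in muscle against nerve was -0.81 ± 0.62 (95% interval -2.10 to 0.49) and passed only without healthy muscle replicate 2, at -1.90 (edgeR adjusted p = 0.0300). In muscle the levels depend on the scaling, because muscle-enriched genes took 79.9% to 80.6% of the counts there. On library totals with no TMM factor the muscle means of Cd68, Arg1 and Hmox1 were 2.44, 0.568 and 8.28 CPM. With TMM they were 5.85, 1.37 and 19.96 CPM, and each shift exceeded the SD of the group. The order of muscle and vein in Hmox1 depends on this scaling. Arg1 in muscle against nerve was -0.11 with TMM factors from all genes and 0.24 when muscle-enriched genes were kept out of the factors.

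Between the days the largest change was that of Arg1. At day 7, relative to day 3, it fell by 5.22 ± 0.60 (SE) on the log2 scale in MIV (edgeR adjusted p = 0.000575), and in EV it fell by 3.94 ± 0.57 (edgeR adjusted p = 0.00177). The fitted folds were 37.3-fold and 15.4-fold lower at day 7. Without MIV day 7 replicate 2 the log2 fold change in MIV was -5.97 (edgeR adjusted p = 0.000568), and voom with all libraries gave -5.97 as well. Among the 15036 genes tested, Arg1 ranked 17 from the lowest log2 fold change in MIV and 50 in EV. The groups of the 2 days did not overlap in either series, but the share of all genes that separate this way was not counted. All 20 alternative settings of the fit kept the call in each series. The edgeR fit called 8.09% of all genes lower in MIV and 10.2% lower in EV.

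Hmox1 at day 7 in MIV fell by 4.40 ± 1.04 (SE) on the log2 scale relative to day 3 (edgeR adjusted p = 0.0195, no overlap of libraries). It kept that call in 16 of 20 alternatives, and lost it without MIV day 3 replicate 2 or 3 or MIV day 7 replicate 1 or 3 (log2 fold changes of -4.25 to -4.06, adjusted p of 0.0573 to 0.0652). Without MIV day 7 replicate 2 it was -5.39 (edgeR adjusted p = 0.0124), and voom with all libraries gave -5.43. In EV the change was -1.81 ± 0.93 and did not pass (95% interval -3.87 to 0.25, edgeR adjusted p = 0.193). Without EV day 7 replicate 2, which held 609 CPM against 61.7 and 47.2 CPM in the other EV day 7 libraries, it was -3.95 ± 0.75 (edgeR adjusted p = 0.0131). Voom called it with all libraries, at -3.46 (adjusted p = 0.00298). All 3 MIV day 7 libraries were below all 3 MIV day 3 libraries, whereas the EV groups overlapped through that 1 library. How many of all genes separate as Hmox1 did in MIV was not counted.

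With edgeR and all libraries, Cd68 and Aif1 did not pass between the days. The log2 fold change of Cd68 was -0.10 ± 0.54 (SE) in MIV (95% interval -1.31 to 1.10, edgeR adjusted p = 0.922) and -0.75 ± 0.55 in EV (95% interval -1.96 to 0.47, edgeR adjusted p = 0.362). For Aif1 it was -0.57 ± 0.64 in MIV (95% interval -1.97 to 0.84, edgeR adjusted p = 0.573) and -1.39 ± 0.65 in EV (95% interval -2.82 to 0.04, edgeR adjusted p = 0.154), although every EV day 7 library was below every EV day 3 library. With all libraries, voom called Aif1 lower in MIV (-1.32, adjusted p = 0.0239), and in EV it called Aif1 (-1.41, adjusted p = 0.00702) and Cd68 (-0.82, adjusted p = 0.0322) lower. MIV day 7 replicate 2 decided the MIV values of edgeR. Without it Cd68 fell by 1.26 ± 0.31 (edgeR adjusted p = 0.0180) and Aif1 fell by 1.85 ± 0.46 (edgeR adjusted p = 0.0182) in MIV, and Aif1 passed in EV at an unchanged estimate of -1.39 ± 0.39 (edgeR adjusted p = 0.0271). With both day 7 libraries numbered 2 left out, edgeR called all 4 genes lower at day 7 in both series. That fit called 1608 of all genes lower in MIV and 1683 in EV. With all libraries edgeR and DESeq2 called 2 of 4 in MIV and 1 of 4 in EV, and voom called 3 and 4. Over all genes edgeR then called 1216 lower in MIV and 1533 in EV, DESeq2 1629 and 1972, and voom 2413 and 3181.

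**Figure D3:**
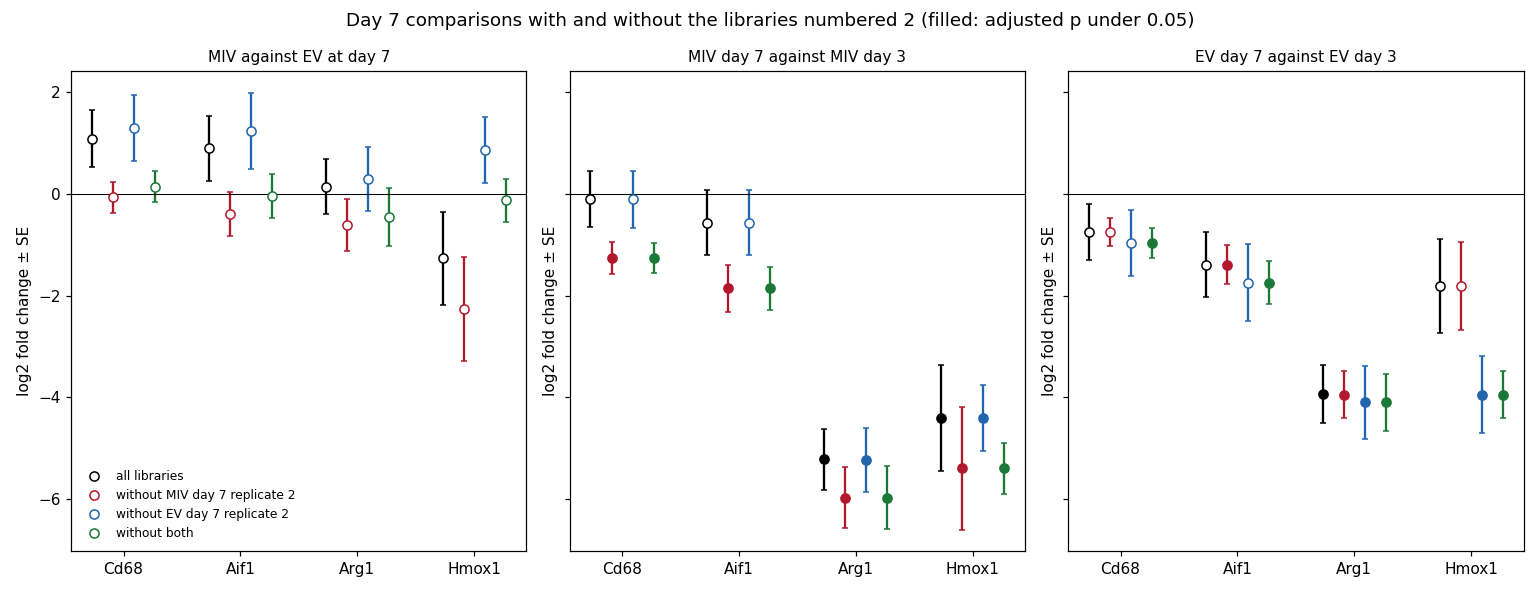
Log2 fold changes ± SE of the 4 genes (x axis) in the 3 comparisons that involve day 7 libraries, with all libraries and without MIV day 7 replicate 2, EV day 7 replicate 2 or both. Filled points passed an adjusted p of 0.05. In MIV against EV, Cd68 is at -0.07 and Aif1 at -0.40 once MIV day 7 replicate 2 alone is left out. Arg1 is filled between the days in every setting shown.

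Relative to Cd68 in the same library, the counts of Arg1 and Hmox1 were lower at day 7. This ratio is free of scaling factors but not of gene length, so it is compared between groups and not between genes. The log2 ratio of Arg1 to Cd68 was -5.80, -6.55 and -6.12 in MIV day 7, -5.23, -5.46 and -5.45 in EV day 7, -2.17, -0.31 and -1.47 in MIV day 3 and -2.22, -1.73 and -2.73 in EV day 3. It ranged from -2.83 to -1.43 in healthy muscle, from -3.28 to -2.14 in healthy vein and from -3.54 to -1.94 in healthy nerve. All 6 day 7 libraries were thus below every day 3 library and every healthy library, and the MIV day 7 libraries were all below the EV day 7 libraries. MIV day 7 replicate 2 kept to this pattern, with the lowest ratio of all 23 libraries. At day 3 the ratios overlapped those of the healthy tissues.

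The log2 ratio of Hmox1 to Cd68 was -1.76, -1.88 and -1.50 in MIV day 7, -1.42, 1.55 and -1.30 in EV day 7, 1.23, 3.05 and 2.99 in MIV day 3 and 2.06, 1.97 and 0.77 in EV day 3. Apart from EV day 7 replicate 2, every day 7 library was below every healthy library, the lowest of which was at -0.84 in vein. The log2 ratio of Aif1 to Cd68 was -2.24 to -1.65 in MIV day 7, -2.09 to -1.40 in EV day 7, -1.69 to -1.10 in MIV day 3 and -1.28 to -0.74 in EV day 3. All 12 repaired libraries were below all 11 healthy ones, the lowest of which was at -0.56 in muscle. These ratios are descriptions and were not tested.

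**Figure D4:**
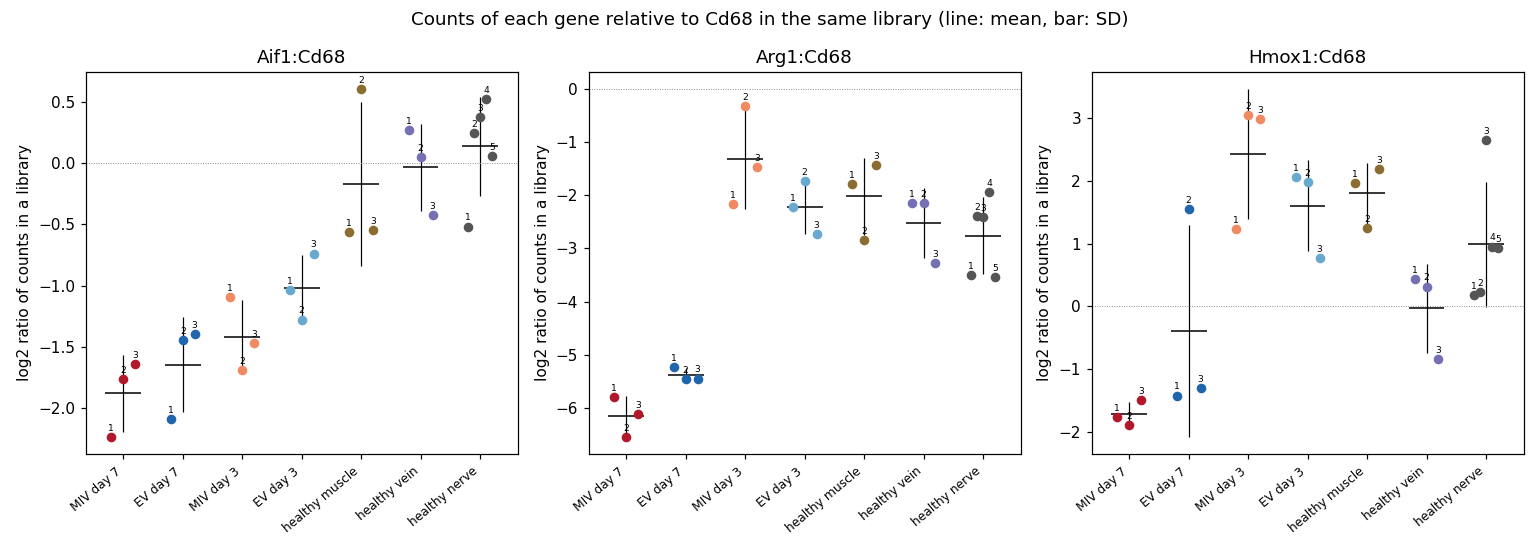
Log2 ratio of the counts of Aif1, Arg1 and Hmox1 to those of Cd68 in the same library (0.5 counts added to each). Points are libraries with their replicate numbers, lines are group means and bars are SDs. The Arg1 ratios of the day 7 libraries, from -6.55 to -5.23, lie below all others.

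MIV was compared with EV at each day because the series asks what the muscle in the graft adds to early regeneration. A graft length is recorded for MIV only, so the 2 labels need not differ in muscle alone. None of the 4 genes passed at either day, and edgeR called 0.00% of all 15036 genes at day 7 and 0.00% at day 3. At an unadjusted p under 0.05 edgeR had 2515 genes at day 7, none of them a member, and 776 genes at day 3, with Arg1 among them. DESeq2 called 868 genes at day 7 and 247 at day 3, while limma's voom, run with quality weights, called 414 and 30. Neither called a member. The share of 0.00% rests on the full set of 12 libraries. With 1 library left out, edgeR called 0 to 688 genes at day 7 and 0 to 70 at day 3, with both upper values reached without MIV day 7 replicate 2. At day 7 it called 45 genes when MIV day 3 replicate 1 was left out and 16 when MIV day 7 replicate 1 was. A block for the replicate number at that day gave 43. With all 23 libraries in the fit it called 1135 at day 7 and 160 at day 3. None of these settings called a member.

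At day 3 every MIV library was above every EV library in Arg1, but the share of all genes that separate this way was not counted. Arg1 averaged 161 ± 85.4 CPM for MIV, against 60.5 ± 24.0 CPM for EV (SD, n = 3 each). Its log2 fold change was 1.41 ± 0.51 (SE; 95% interval 0.30 to 2.53), with an unadjusted edgeR p of 0.0180 that did not pass the adjustment over all genes (adjusted p = 0.668). Over the alternatives the adjusted p ran from 0.125 to 1, and the log2 fold change from 0.88 without MIV day 3 replicate 2 to 1.78 without EV day 3 replicate 2. Hmox1 at day 3 averaged 2114 ± 856 CPM for MIV, against 848 ± 281 CPM for EV (SD, n = 3 each). MIV day 3 replicate 1, at 1128 CPM, lay just below the highest EV library at 1144 CPM. Its log2 fold change was 1.32 ± 0.92 (95% interval -0.72 to 3.35, edgeR adjusted p = 1). Cd68 and Aif1 had log2 fold changes of 0.44 ± 0.55 (95% interval -0.77 to 1.65) and 0.07 ± 0.63 (95% interval -1.34 to 1.47) at day 3, with overlapping libraries.

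At day 7 all 4 genes overlapped between the series. Cd68 had a log2 fold change of 1.09 ± 0.55 (SE; 95% interval -0.13 to 2.31, edgeR adjusted p = 0.345), and Aif1 of 0.89 ± 0.64 (95% interval -0.53 to 2.31, edgeR adjusted p = 0.483). Both came from 1 library: without MIV day 7 replicate 2 they were -0.07 and -0.40. The Cd68 levels of MIV day 7 replicates 1, 2 and 3, at 172, 758 and 134 CPM, ran opposite to the muscle-enriched shares given above. The part of those shares in the Cd68 and Aif1 values was not tested. Arg1 had a log2 fold change of 0.14 ± 0.54 (95% interval -1.06 to 1.33), which was -0.61 without MIV day 7 replicate 2. Hmox1 had one of -1.27 ± 0.92 (95% interval -3.30 to 0.76, edgeR adjusted p = 0.486), which was 0.86 without EV day 7 replicate 2 and -2.26 without MIV day 7 replicate 2.

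The difference between the MIV effects at day 7 and day 3 was tested as an interaction. It was -2.59 ± 1.30 (SE) for Hmox1, -1.28 ± 0.74 for Arg1, 0.82 ± 0.90 for Aif1 and 0.65 ± 0.77 for Cd68 on the log2 scale (edgeR adjusted p of 0.906 to 0.917). No member passed, none had an unadjusted p under 0.05 with edgeR, and DESeq2 and voom called none of the members. Single libraries moved these values: the Hmox1 value was -0.45 without EV day 7 replicate 2 and -3.58 without MIV day 7 replicate 2. The same omission put Arg1 at -2.03, Aif1 at -0.46 and Cd68 at -0.51. The edgeR fit called 0.00% of all genes (3 without MIV day 7 replicate 2), DESeq2 called 17 and voom 0.

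Over all 23 libraries the 4 genes formed 2 pairs. Among 11800 genes with a mean of at least 10 CPM in 1 group or more, Arg1 was the 9th most similar to Hmox1 and Hmox1 the 19th most similar to Arg1, by a Pearson r of log2 CPM of 0.935. Aif1 ranked 71st for Cd68 and Cd68 29th for Aif1, with r = 0.966. Across the pairs r was 0.775 to 0.862, with ranks from 297 to 1212. The gene most like Cd68 was ENSRNOG00000022975 (r = 0.992) and the gene most like Arg1 was ENSRNOG00000024763 (r = 0.961), neither of which has a name in the sources used here. These values describe 23 points that share 7 groups and the same library scaling, and no test was made.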

How the data were processed

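RNA was extracted with TRIzol and poly-A-selected, non-directional libraries were sequenced, per the labels' protocols, so the strand of a read is unknown and genes that overlap on opposite strands can share reads. CASAVA and HISAT2 were used per the submitters' processing notes, without versions. No source used here names the counting tool, the build or the annotation. The authors deposited raw counts per Ensembl identifier in 23 columns, each of which matched the title of 1 library (0 unmatched).

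The tests used edgeR 4.0.16 under R 4.3.3. Low genes were removed by filterByExpr with a minimum count of 10, not asked of every library, and a minimum total of 15. Scaling was by TMM, and robust glmQLFit and glmQLFTest had 1 coefficient per group. Adjustment was by Benjamini-Hochberg over all genes, with a threshold of 0.05. One fit of the 12 repaired libraries (15036 genes, common biological variation 37.1%) served the comparisons between repaired groups, and one of all 23 (15954 genes, 31.4%) served those with healthy tissue. SEs are the log2 fold change divided by the square root of F, and 95% intervals use the fit's degrees of freedom. DESeq2 1.42.0 and voom with quality weights (limma 3.58.1) were alternatives. The fits were also run on simulated counts, with the same means in all groups apart from a set of altered genes. That run held no tissue differences and no deviating library, so it does not bear on those.

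All 4 measured members are named in every comparison, and for likeness the rule asked for genes with a symbol. Of the 32545 identifiers 0 matched one in the reference table, so the 17 gene lists (pathways and markers of other cell types) could not be measured beyond the members, the labelled tissues could not be checked against markers, and 2 identifiers are named instead. The planned ratio of Arg1 to Nos2 was left out. The members and lists were chosen with earlier results of these data known. Same-numbered MIV and EV libraries at day 7 deviated together from their group means (r = 0.224, 0.201 and 0.176), so a block of the number at that day was added. It called no member and 43 genes in all, against 0 without the block.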

Additional observations from a re-analysis of the deposited data

Results flagged for a closer look

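Hmox1 in healthy nerve replicate 3 stood at 66.4 CPM, far above the other 4 healthy nerve libraries, which ran from 11.7 to 21.2 CPM. The gap to the nearest library took 0.826 of the group's range, beyond the critical value of 0.71. Healthy nerve was the only group large enough for this check, so 4 sets of values (1 per gene) were examined. Chance flags about 1 set in 20 where values follow a normal distribution, which was not checked. The check used CPM and was not repeated on the log2 scale, on which high values stand out less. In that library Cd68 was at the median of the group, at 10.6 CPM, while Aif1 (13.8 CPM) and Arg1 (1.97 CPM) were the highest of the 5 without standing apart in the same way.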

How the results depend on the processing

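All 4 genes stayed called higher in MIV day 3 and in EV day 3 against healthy nerve in all 31 alternative settings of each comparison, and Arg1 stayed called lower at day 7 in all 20 of each series. In MIV day 7 against healthy nerve, 1 library at a time left out gave 2 to 4 calls. Omission of both day 7 libraries numbered 2 gave 2, with 3942 of all genes called higher, and the replicate block gave 1. In EV day 7 against healthy nerve the range was 2 to 4, with 2 under the replicate block. Over all genes that block called 1441 higher in MIV day 7 and 3195 in EV day 7, against 4654 and 3841 in the main fit. It was fitted to the 2 groups alone and to the replicate numbers they share, so healthy nerve replicates 4 and 5 were left out. In MIV day 7 against MIV day 3 (2 calls) the range was 1 to 4, with 4 when both libraries numbered 2 were left out. In EV day 7 against EV day 3 (1 call) it was 1 to 2, with 4 by voom and 4 without both libraries. The replicate block over 12 libraries gave 2 there, where Hmox1 passed, and called 1315 of all genes lower. Healthy muscle against nerve gave 0 to 1, and muscle against vein gave 1 with only those groups fitted (Hmox1, adjusted p = 0.0325).

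Some directions that had no call reversed. With 1 library left out the log2 fold changes of MIV against EV ran from -0.38 to 0.42 for Aif1 at day 3 and, at day 7, from -0.0697 to 1.503 for Cd68, -0.40 to 1.28 for Aif1, -0.61 to 0.51 for Arg1 and -2.26 to 0.86 for Hmox1. They ran from -1.26 to 0.29 for Cd68 in MIV day 7 against day 3, from -0.51 to 1.05 (Cd68) and -0.46 to 1.27 (Aif1) for the difference of the MIV effects, from -0.74 to 0.12 (Arg1) and -0.74 to 0.39 (Hmox1) in muscle against nerve, and from -0.52 to 0.35 (Cd68) and -0.43 to 0.0919 (Aif1) in vein against nerve. Voom gave -0.15 for Aif1 in MIV against EV at day 3, -0.0644 for Aif1 and -0.27 for Arg1 at day 7, -0.0040 for Cd68 in the difference of the MIV effects, 0.35 for Hmox1 in muscle against nerve and -0.10 for Cd68 in vein against nerve. Without both libraries numbered 2, MIV against EV at day 7 was -0.0432 for Aif1 and -0.46 for Arg1, and the difference of the MIV effects was -0.30 for Cd68 and -0.11 for Aif1. With a replicate block Arg1 in MIV against EV at day 7 was -0.0394 over 12 libraries and -0.0385 with the block at day 7 alone, and Cd68 was -0.23 in vein against nerve. With muscle-enriched genes kept out of the scaling, Arg1 in muscle was 0.24 against nerve and 0.0629 against vein. The cause of these reversals was not tested. Between MIV and EV at day 7 every same-numbered pair had a correlation of deviations over 0.1. In each other set at least 1 pair did not, although single pairs reached 0.239 (MIV day 3 with EV day 3, replicate 2) and 0.131 (MIV day 7 with MIV day 3, replicate 2), so the block there rests on a shared number alone. Voom, the day 7 block and the omission of both libraries were chosen after seeing the data. The low Arg1 counts in healthy and day 7 libraries limit its small day 7 differences.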
